A study of Danio rerio with 18 samples.

Results

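The difference between male and female liver was compared between the TU (Tuebingen) and WIK laboratory strains of zebrafish. The comparison used 12 of the 18 arrays of the series, chosen by their strain and sex labels: 3 males and 3 females of each strain, 1 array and 1 fish each. All were naive wildtype adults aged 12 to 18 months, bred in 1 facility for 2 generations from embryos of a stock centre, and were sexed at dissection by the sight of eggs or testes. Total liver RNA was hybridized to one-colour arrays of 43603 probes. For every probe the male minus female difference in TU was set against that in WIK, in log2 units. A positive interaction means that expression was more male-biased in TU, and a negative one that it was more male-biased in WIK. The comparison was made with all 12 arrays and again without TU female 3, whose profile lay with the males. The 6 AB arrays entered neither fit and are given only beside the results.

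In egg-laying females, oestrogen from the ovary acts through the liver's oestrogen receptor to switch on the vitellogenins, the yolk precursors that the liver secretes in great amounts. The male liver makes little of them, and the sexes also differ in steroid, lipid and retinoid metabolism. Cholesterol synthesis, another task of the liver, runs from acetyl-CoA through HMG-CoA reductase to lanosterol and on to cholesterol, and its enzymes are induced together when sterols are scarce.

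Several fish stood apart from their groups before any comparison was made. Over 214 probes that were higher in AB females than in AB males, the median log2 signal was 11.22 and 11.19 in TU females 1 and 2 and 8.58 in TU female 3, against 7.31 to 8.44 in the TU males. TU female 3 correlated best with TU male 2 (r = 0.966 over all probes) and at 0.920 and 0.921 with the other TU females. It also had the most erythrocyte RNA: hbaa2, an alpha globin, had a log2 signal of 16.08 there and 6.46 to 9.21 in the other 11 fish. WIK male 3 leaned the other way, with a median of 8.89 at the probes higher in AB females against 6.97 and 7.12 in the other WIK males. At 123 probes higher in AB males, TU female 3 had a median of 10.30. The TU males had 10.25 to 10.96 there, and TU females 1 and 2 had 9.08 and 9.18. WIK male 3 had 9.886, near WIK male 2 at 9.924, with WIK male 1 at 10.324 and the WIK females at 8.664 to 8.885. TU female 3 thus lay near the males at both sets of probes, while WIK male 3 leaned towards the females only at the first set.

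RNA of neighbouring organs was uneven as well. The median log2 signal of 15 measured hepatocyte genes was high in every fish, from 15.79 to 17.75. Of 8 measured intestine genes, fabp2, the intestinal fatty acid binding protein, reached 17.56 and 16.15 in TU males 1 and 3 and 6.82 in TU male 2. The summed log2 signal of the intestine list ran from 10.08 to 17.75 in TU males, 10.26 to 13.07 in TU females, 9.94 to 10.15 in WIK males and 9.72 to 13.78 in WIK females. The egg coat gene zp3 had log2 signals of 9.68 in TU female 2, 12.60 in WIK female 1 and 10.63 in WIK female 2, and of 5.99 to 6.24 in the other 9 fish. The summed level of the 11 measured ovary genes ran up to 9.59 in TU males, 11.55 in TU females, 9.77 in WIK males and 14.70 in WIK females. The median of 19 exocrine pancreas genes was highest in WIK male 3, at 16.52, and in TU male 3, at 15.11. TU male 2 alone had myl7, a cardiac myosin light chain looked up after its values were seen, at 12.05 against 6.01 to 6.66 in the other fish. The part of these other tissues in the results was not tested gene by gene, and fewer cells of a type and less RNA per cell cannot be told apart in whole liver.

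**Figure D1:**
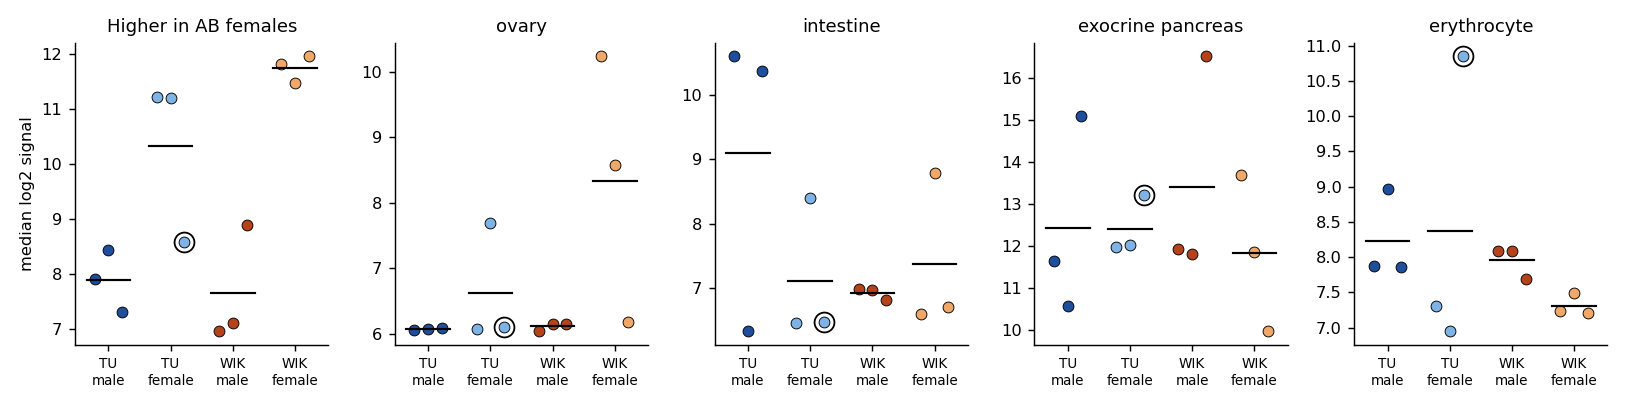
Median log2 signal in each fish over the 214 probes higher in AB females and over the ovary, intestine, exocrine pancreas and erythrocyte gene lists, with a bar at the group mean and TU female 3 circled. TU female 3 lies near the TU males at the probes higher in AB females (8.58), and TU males 1 and 3 have the highest intestine medians.

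With all 12 arrays, 17 of 43603 probes had a sex difference that differed between TU and WIK (limma, Benjamini-Hochberg adjusted p of at most 0.05), or 0.039% of the probes tested. They represented 13 named genes, and 8 of the probes were more male-biased in TU and 9 in WIK. At these probes the difference lay mostly in WIK: the sexes differed more in WIK than in TU at 16 of the 17. This fit counts TU female 3 as a female, which favours calls at probes where the TU sexes lie close. Only 3 of the 17 probes were well above background on all 12 arrays, and 2 were so on no TU array. Small TU differences were thus often between values near background. At 9 probes WIK males were more than 2-fold higher than WIK females while the TU sexes differed by less than 2-fold, and at 5 probes WIK females were higher in the same way. TU males and WIK females were both more than 2-fold above the other sex at 2 probes, and the females of both strains were at the remaining probe. By sign alone, opposite sexes were higher in the 2 strains at 10 of the 17. The median interaction over all probes was -0.02. Before adjustment, 2685 probes were below a p of 0.05.

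The largest positive interactions came from genes high in WIK females. prkcbb, a protein kinase C of the beta type, had log2 signals of 9.80, 9.30 and 9.72 in WIK females, 6.48, 6.30 and 6.25 in WIK males, 6.88, 6.63 and 6.63 in TU males and 6.67, 6.28 and 6.67 in TU females. The WIK females were 9.59-fold above the WIK males, no other fish came near them, and the TU sexes overlapped. The interaction was 3.43 ± 0.22 (SE; adjusted p = 0.00105). The second prkcbb probe on the array had an interaction of 0.16 and was not called.

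rarres3l, named for a retinoic acid receptor responder of the phospholipase A and acyltransferase family, followed the same sexes in both strains but on different scales. Its log2 signals were 13.07, 12.92 and 13.62 in WIK females and 6.40, 6.53 and 6.93 in WIK males, a 95.7-fold difference. In TU they were 10.22, 10.65 and 9.66 in females and 8.61, 8.45 and 9.37 in males, so that all TU fish lay between the WIK sexes and TU females lay above TU males. The interaction was 5.21 ± 0.45 (adjusted p = 0.00447) at this probe and 4.37 at the second probe, which was also called. Both probes of the uncharacterised gene zgc:153219 that were called were higher in WIK females, with log2 signals of 9.73, 10.82 and 10.74 against 7.49, 7.34 and 7.40 in WIK males and 6.14 to 6.35 in TU fish of both sexes at the first of them. Its interaction there was 3.04 ± 0.34 (adjusted p = 0.0257). Of its 4 probes only these 2 were called, and the lowest interaction among the 4 was -0.10.

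2 enzymes of cholesterol synthesis had opposite sexes on top in the 2 strains. hmgcra, one of the HMG-CoA reductases, which catalyse the rate-limiting step, had log2 signals of 11.64, 11.34 and 11.48 in WIK females and 6.08, 6.20 and 7.99 in WIK males at the probe that the study's tables assign to it. TU males had 7.21, 7.06 and 8.65 there, and TU females 6.25, 6.10 and 6.13. WIK females were thus the highest fish, TU males were above TU females without overlap, and WIK male 3 was above both other WIK males. The TU difference was not called on its own by limma at this probe (adjusted p = 0.577) or at the dimmer called probe (adjusted p = 0.583). At the dimmer probe TU male 2, at 6.322, lay below TU female 1, at 6.348. TU females were not well above background on any array at the called hmgcra probes, and WIK males on 1 array, so TU males were at least 2.79-fold higher than TU females at the brighter of them and 1.34-fold at the dimmer, and the interactions rest partly on background values. The interaction was 6.21 (adjusted p = 0.0346), it was 2.12 ± 0.23 (adjusted p = 0.0252) at the dimmer probe, and at the brightest probe it was 7.22 and not called (adjusted p = 0.107).

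sc5d, the sterol C5 desaturase late in the pathway, had log2 signals of 10.81, 9.76 and 10.94 in TU males, 8.63, 8.45 and 8.64 in TU females, 9.18, 8.94 and 9.38 in WIK males and 10.195, 10.195 and 10.656 in WIK females. TU males were 3.79-fold above TU females and WIK females 2.27-fold above WIK males, with no overlap within either strain. The interaction was 3.11 ± 0.40 (adjusted p = 0.0455). With all 12 arrays, neither of the sc5d differences within a strain was called on its own by limma (adjusted p = 0.162 in TU and 0.10 in WIK). Without TU female 3 the TU difference was called (adjusted p = 0.0124) and the WIK difference was not (adjusted p = 0.0814). The second sc5d probe had an interaction of 1.92 with all arrays and was not called.

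Of 22 measured cholesterol synthesis genes, 1 was called at its brightest probe (sc5d), 0 were called in the other direction, and hmgcra was called at other probes. Over all probes, 0.039% were called with all 12 arrays. The interaction was above 0 at 18 of the 22 genes, with a median of 0.79 against -0.02 over all probes. At an unadjusted p under 0.05 there were 3 of the 22 genes with all arrays and 4 without TU female 3. The share was 8.44% and 14.45% of probes well above background on at least 3 arrays. In TU the males were the higher sex at 21 of the 22 genes, and in WIK the females were higher at 10. msmo1, a C4 methyl sterol oxidase, had an interaction of 2.43 (adjusted p = 0.18), with 11.10, 10.37 and 11.68 in TU males against 8.80, 8.82 and 9.04 in TU females. At 15 of the 22 genes TU male 3 was the highest of the 12 fish.

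**Figure D2:**
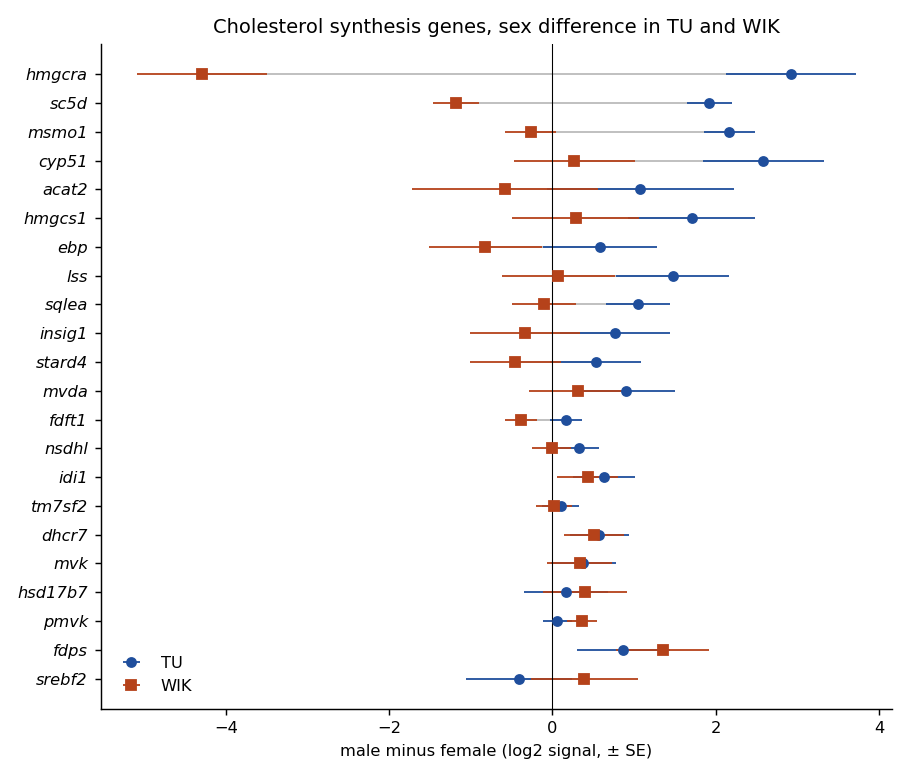
Male minus female difference in log2 signal (± SE) in TU (circles) and WIK (squares) for 22 cholesterol synthesis genes at their brightest probe, sorted by the interaction. TU lies to the right of WIK at 18 genes, and sc5d is the gene called at the probe plotted.

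The other called genes were high in WIK males or low in WIK females. si:dkey-16m19.2, a gene without a given function, had log2 signals of 10.94, 11.21 and 10.34 in WIK males, 6.30, 6.65 and 6.52 in WIK females and 6.002 to 6.40 in all TU fish. It was 20.2-fold higher in WIK males than in WIK females (interaction -4.32 ± 0.28, adjusted p = 0.00105), and its second probe, also called, was well above background in WIK males alone, which were at least 2.67-fold above WIK females there. dnah2, a heavy chain of the dynein that moves cilia and flagella, had 8.41, 9.47 and 8.79 in WIK males and 6.03 to 6.41 in the other 9 fish (interaction -2.79 ± 0.32, adjusted p = 0.0279). The WIK males thus stood apart from every other fish at both genes.

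4 dimmer probes had the same shape. hoxc1a, a homeobox transcription factor, had log2 signals of 7.52, 7.54 and 7.48 in WIK males and was not well above background on any TU array, so that its TU difference is one between background values (interaction -1.47 ± 0.12, adjusted p = 0.00385). coch, an extracellular matrix protein known from the inner ear of mammals, had 8.15, 8.16 and 7.66 in WIK males and 6.05 to 6.43 elsewhere. rab6ba, a small GTPase of Golgi traffic, had 8.09, 7.94 and 7.95 in WIK males and 6.07 to 6.73 elsewhere. Each of these genes separated the WIK males from all other fish. tdg.2, a thymine DNA glycosylase, had 8.91, 9.06 and 8.87 in WIK males, 7.12, 6.70 and 6.18 in WIK females and 6.01 to 6.35 in TU. The interactions of coch, rab6ba and tdg.2 were -1.64, -1.77 and -2.14 (adjusted p = 0.0419, 0.0419 and 0.0455).

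2 genes were low in WIK females. gapdh, the glycolytic enzyme often used as a reference gene, had log2 signals of 14.69, 14.56 and 14.66 in WIK females, 17.08, 17.02 and 16.81 in WIK males, 16.88, 16.60 and 16.58 in TU males and 16.40, 16.16 and 16.67 in TU females. WIK females were 5.03-fold below WIK males and below every TU fish (interaction -2.06 ± 0.19, adjusted p = 0.00846). Of 4 gapdh probes this one was called; the interaction was below 0 at all 4 and was -0.83 at the brightest. eif4ebp3l, a repressor of cap-dependent translation, had 13.28, 13.39 and 12.65 in WIK males, 10.42, 10.70 and 10.75 in WIK females and 11.62 to 12.29 in TU, where the sexes overlapped (interaction -2.62 ± 0.31, adjusted p = 0.0346). WIK males lay above all TU fish for eif4ebp3l, and WIK females lay below them.

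**Figure D3:**
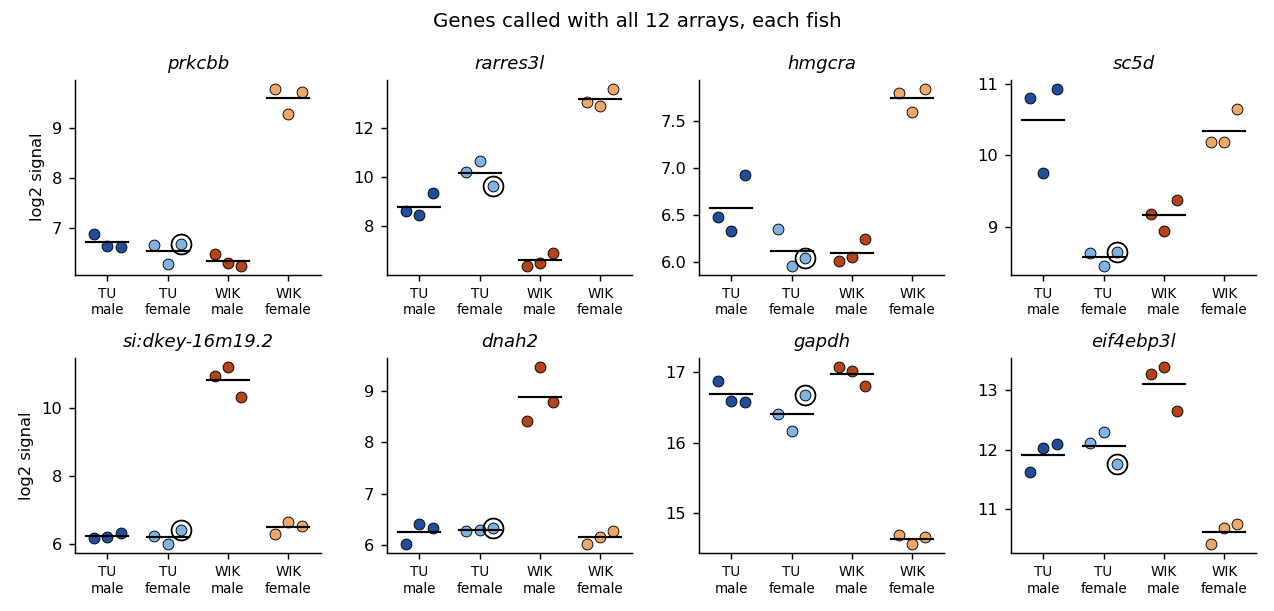
Log2 signal of each fish for 8 genes called with all 12 arrays, with a bar at the mean of each group of 3 fish and TU female 3 circled. WIK females stand apart for prkcbb, rarres3l and hmgcra, WIK males for si:dkey-16m19.2 and dnah2, and WIK females are low for gapdh and eif4ebp3l.

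The AB sex difference lay nearer to that of TU at 15 of the 17 probes and was below 2-fold at 11. At 16 of the 17 the larger difference was in WIK, so any strain with a small sex difference falls nearer to TU. The count thus does not show that AB resembles TU, and the share that follows was not limited to such probes. Over all probes with an interaction of at least 1 log2 unit in size, AB was nearer to TU at 45.0% of 2226. Among the 79 probes called without TU female 3, AB was nearer to TU at 41 and to WIK at 38. In that fit, AB was nearer to TU at 40.3% of the 2824 probes with an interaction of at least 1 log2 unit in size. prkcbb had an AB difference of -0.18, hoxc1a one of -0.001, dnah2 one of -0.09 and eif4ebp3l one of 0.15. At the dimmer hmgcra probe AB lay with WIK, higher in females by 1.58 log2 units (adjusted p = 0.0441), and at sc5d it was 0.96 higher in males, as in TU, without being called (adjusted p = 0.213).

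Without TU female 3 the count rose to 79 probes, 0.181% of those tested, for 67 names. All 17 probes of the first comparison were among them. Of the 79, 28 were more male-biased in TU and 51 in WIK, and now the sexes differed more in TU than in WIK at 56. At 25 probes TU females were more than 2-fold higher than TU males while the WIK sexes differed by less than 2-fold, and at 12 probes TU males were higher in the same way. Opposite sexes were more than 2-fold higher in the 2 strains at 7 probes. Since only TU females 1 and 2 remained, the TU female mean rests on 2 fish. Probes called only in this fit were picked with TU female 3 left out, which favours probes where that fish lay away from TU females 1 and 2. The level of TU female 3 at such probes is thus partly fixed by the choice of probes.

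**Figure D4:**
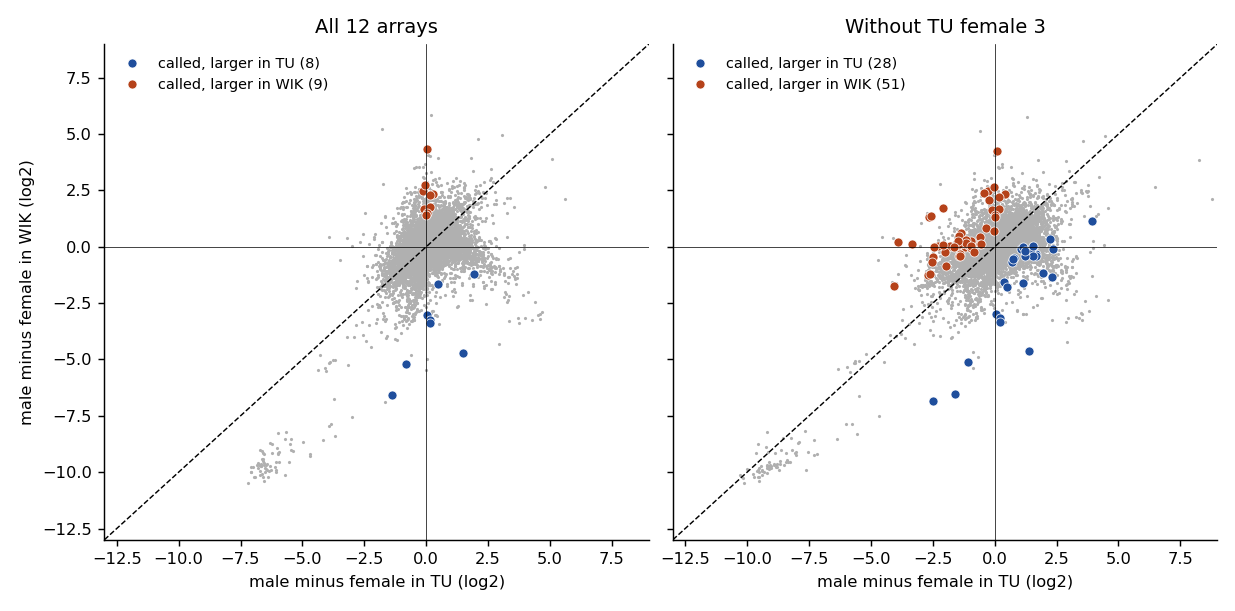
Male minus female difference in WIK against that in TU for all 43603 probes (grey), with all 12 arrays and without TU female 3; coloured points were called, and the dashed line marks equal differences. With all arrays most called probes lie within 1 log2 unit of 0 in TU, and without TU female 3 many lie near 0 in WIK. The cloud at the lower left holds the vitellogenins.

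Among genes of growth and nutrition, igfbp1b, which binds insulin-like growth factors, had log2 signals of 9.13, 10.09 and 9.15 in TU males, 12.05 and 12.17 in TU females 1 and 2, 14.37, 14.53 and 14.44 in WIK males and 13.52, 12.70 and 13.21 in WIK females, and of 9.15 in TU female 3. Females were thus higher in TU and males in WIK, and TU female 3 had the level of a TU male. The interaction without TU female 3 was -3.98 ± 0.41 (adjusted p = 0.0168), both igfbp1b probes were called, and with all 12 arrays it was -2.97 (adjusted p = 0.631).

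fgf19, gyg1a and srfa were singled out after their values were seen. fgf19, whose product in mammals signals from gut to liver to lower bile acid synthesis, had log2 signals of 6.33, 7.03 and 7.23 in TU males, 8.63 and 9.40 in TU females 1 and 2, 6.12 in TU female 3, 9.09, 9.30 and 8.76 in WIK males and 6.74, 7.85 and 7.33 in WIK females. It again had females on top in TU and males on top in WIK (interaction -3.80 ± 0.49, adjusted p = 0.0321). cyp7a1, the rate-limiting enzyme of bile acid synthesis, had an interaction of -4.12 that was not called (adjusted p = 0.0963). gyg1a, the glycogenin that primes glycogen, was higher in females of both strains, by 2.60 log2 units in TU and 1.23 in WIK (interaction -1.37 ± 0.18, adjusted p = 0.0321). srfa, a serum response factor, was also higher in females of both strains, at 12.86, 13.80 and 13.97 in WIK females and 8.28 and 9.73 in TU females 1 and 2, against 6.20 to 7.04 in all males (interaction 4.35 ± 0.60, adjusted p = 0.0406).

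Other genes were higher in TU females 1 and 2 than in TU males. btf3, which binds nascent chains at the ribosome, had log2 signals of 15.15 and 15.44 in TU females 1 and 2, 12.08 in TU female 3, 12.95, 13.21 and 12.49 in TU males and 14.02 to 14.32 in all WIK fish (interaction -2.43 ± 0.26, adjusted p = 0.0186). rpl5b, a protein of the large ribosomal subunit, had an interaction of -1.08 ± 0.14 (adjusted p = 0.0321), with 16.48 and 16.32 in TU females 1 and 2, 14.96 to 15.18 in TU males, 15.54, 15.76 and 15.60 in WIK males and 16.02, 15.95 and 15.86 in WIK females, so that females were higher in both strains. TU female 3, at 12.08 for btf3 and 15.20 for rpl5b, was near or below the TU males in both genes, and the WIK fish lay between the TU sexes. adh5, an alcohol dehydrogenase that clears formaldehyde, had 13.41 and 13.12 in TU females 1 and 2, 11.37 in TU female 3, 11.06, 11.44 and 11.30 in TU males and 12.19 to 12.67 in WIK (interaction -1.78 ± 0.19, adjusted p = 0.0179). The transcript NM_001136256, to which no name was matched, had 10.06 and 10.08 in TU females 1 and 2 and 6.15 to 7.09 in all other fish (interaction -3.46 ± 0.29, adjusted p = 0.0101).

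Other genes were higher in TU males than in TU females 1 and 2. cyp2k22, a cytochrome P450, had log2 signals of 14.01, 13.59 and 14.22 in TU males, 11.58 and 11.65 in TU females 1 and 2, 15.24 in TU female 3 and 12.61 to 12.99 in WIK fish. TU female 3 exceeded even the TU males, and the WIK sexes overlapped (interaction 2.44 ± 0.24, adjusted p = 0.0135). Of 3 cyp2k22 probes this one was called. glrx, a glutaredoxin of thiol redox balance, had 12.67, 12.51 and 12.90 in TU males, 11.28 and 11.16 in TU females 1 and 2, 12.69 in TU female 3 and 12.00 to 12.34 in WIK (interaction 1.57 ± 0.18, adjusted p = 0.0247), and 3 of its 4 probes were called.

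psmb8a, a catalytic subunit of the immunoproteasome, was not well above background on any WIK array (5.96 to 6.21), so that its WIK difference is one between background values. In TU it had log2 signals of 8.84, 8.70 and 9.23 in males, 7.27 and 7.42 in females 1 and 2 and 8.71 in female 3 (interaction 1.54 ± 0.20, adjusted p = 0.032). znf1156, a zinc finger gene, was likewise not well above background in WIK, at 5.96 to 6.13, with 8.12, 8.38 and 8.07 in TU males and 9.79 and 9.47 in TU females 1 and 2 (interaction -1.50 ± 0.16, adjusted p = 0.0179).

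2 of the genes added without TU female 3 had males on top in TU and females on top in WIK. znrf2a, a ubiquitin ligase, had 10.22, 9.77 and 10.12 in TU males, 7.55, 7.82 and 9.60 in TU females, 7.74, 7.84 and 7.03 in WIK males and 8.64, 9.20 and 8.88 in WIK females (interaction 3.67 ± 0.34, adjusted p = 0.0116). slc39a7, a zinc transporter of the endoplasmic reticulum, had an interaction of 2.75 ± 0.35 (adjusted p = 0.032), with 10.10, 10.11 and 10.67 in TU males, 9.27 and 9.01 in TU females 1 and 2, 9.25, 9.38 and 9.44 in WIK males and 10.80, 10.62 and 11.50 in WIK females. TU female 3, at 9.60 for znrf2a and 10.97 for slc39a7, was nearer to the TU males, a pattern that the choice of these genes favours. The gap junction gene gja13.1 was called at both of its probes, with an interaction of 2.06 ± 0.20 (adjusted p = 0.0131) at the first.

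6 named genes and transcripts remained. More male-biased in TU were tm9sf1, a membrane protein of the endosome (interaction 1.39), and the unnamed transcript TC395038 (1.88). More male-biased in WIK were lnx2a, a ubiquitin ligase (-1.84), CSGALNACT1, an enzyme of chondroitin sulphate synthesis (-1.15), and the unnamed transcripts ENSDART00000109042 (-1.92, with 1 WIK female left out by an outlier mark) and CT698230 (-2.33). All 6 had an adjusted p between 0.0104 and 0.0299.

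**Figure D5:**
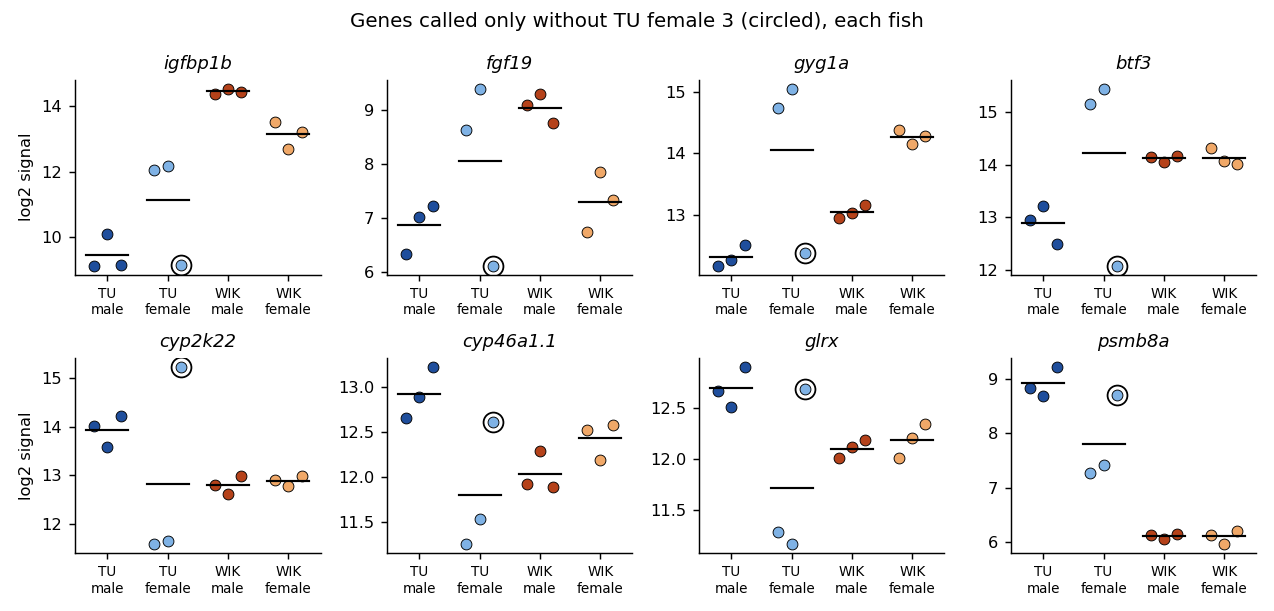
Log2 signal of each fish for 8 genes that were called only without TU female 3 (circled), with a bar at the mean of all 3 fish of each group. The circled fish has the level of the TU males or lies beyond them, while TU females 1 and 2 lie apart from the TU males. Picking genes called only without the circled fish favours this pattern.

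By list, few genes of any pathway were called. In the fit without TU female 3, in which 0.181% of all probes were called and 4461 had an unadjusted p under 0.05, 1 of 20 fatty acid oxidation genes was called (acadl, an acyl-CoA dehydrogenase, interaction 1.64 ± 0.23, adjusted p = 0.0406), and the list's median was 0.50 against -0.01 over all probes. Of 45 cytochrome P450 genes at their brightest probes, 1 was called (cyp46a1.1, a cholesterol 24-hydroxylase, interaction 1.93 ± 0.27, adjusted p = 0.0417), with a median of 0.53. Of 12 genes of MHC class I and antigen processing, 1 was called (psmb8a), with a median of 0.74. All 3 genes were more male-biased in TU. At an unadjusted p under 0.05 there were 9, 15 and 4 genes of these lists, and 1, 7 and 4 with all arrays. Among probes well above background on at least 3 arrays, the share was 14.45%, and 8.44% with all arrays.

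Of 33 clock genes, 1 was called in the direction of WIK: nfil3-5, of the family of the transcription factor NFIL3, which had log2 signals of 10.92, 10.77 and 10.29 in WIK males and 7.47 to 8.82 in the other 9 fish (interaction -2.81 ± 0.41, adjusted p = 0.0486). Of 15 genes listed under gluconeogenesis and glycolysis, 1 was called in the direction of WIK at its brightest probe, with a list median of -0.47. It was igfbp1b, which binds insulin-like growth factors and is not an enzyme of either pathway. The glycolytic enzyme gapdh was called in both fits, but not at its brightest probe. Over all probes, 0.181% were called without TU female 3. At an unadjusted p under 0.05 there were 6 clock genes and 1 gene of the second list with all arrays. Without TU female 3 there were 5 and 3. The share was 8.44% and 14.45% of probes well above background on at least 3 arrays. The lists of sex steroid receptors and enzymes (17 genes), retinoid transport (15), lipid transport (28), fatty acid synthesis (16), endoplasmic reticulum folding and secretion (42) and DNA replication (23) had 0 genes called by limma at their brightest probes in either fit. At an unadjusted p under 0.05 there were 5, 2, 3, 2, 3 and 1 of them with all arrays and 7, 2, 7, 3, 9 and 0 without TU female 3. The share was 6.16% and 10.23% of all probes. It was 8.44% and 14.45% of probes well above background on at least 3 arrays, as list genes had to be. Of the 8 cell type lists 0 genes were called either, with at most 2 of a list at an unadjusted p under 0.05, while the medians of the intestine and ovary lists were 2.18 and 1.85 with all arrays and 2.12 and 1.43 without TU female 3.

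The best known sex-biased genes of the liver were not called. All 7 measured vitellogenins were higher in females of both strains, and 0 of their interactions were called by limma in either fit, or had an unadjusted p under 0.05. Over all probes, 0.039% were called with all arrays and 0.181% without TU female 3. The share at an unadjusted p under 0.05 was 6.16% and 10.23%. At such shares, 0 of 7 genes does not set the vitellogenins apart. vtg1 had log2 signals of 17.95, 18.13 and 11.55 in TU females, 18.07, 18.17 and 18.07 in WIK females, 9.05, 10.34 and 6.97 in TU males and 6.66, 6.90 and 10.84 in WIK males. TU female 3 was the 1 female without the female level, and TU males 1 and 2 and WIK male 3 were above the other males. The median vitellogenin interaction was 2.80 with all arrays and 0.79 without TU female 3. For vtg1 the interaction was 2.88 ± 2.49 (SE; adjusted p = 0.914) and 0.69 ± 1.67 (adjusted p = 0.937). With errors this wide, the lack of a call does not show that the vtg1 sex difference was alike in the 2 strains.

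The oestrogen receptor esr1 was at 12.14 and 11.83 in TU females 1 and 2 and at 9.02 in TU female 3, against 11.20 to 12.21 in WIK females and 6.69 to 7.13 in all males. Its interaction was 0.52 (adjusted p = 0.965) and -0.45 (adjusted p = 0.746) without TU female 3. hsd17b3, which makes testosterone, was at 9.30 to 10.40 in TU males, 10.67 to 11.35 in WIK males and 10.90 in TU female 3, and at 6.002 to 6.35 in the other females (interaction -2.71, adjusted p = 0.841, and -1.11, adjusted p = 0.379, without TU female 3). slc27a6, a fatty acid transporter, had -2.13 (adjusted p = 0.832) and -0.95 (adjusted p = 0.169). Both male-biased genes thus had their signal in TU female 3 as well.

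Of the other sex-biased genes, hsd11b2 was nearest to the threshold. hsd11b2, which inactivates cortisol, had log2 signals of 13.38, 13.76 and 13.21 in WIK males, 9.27, 9.74 and 10.38 in WIK females and 11.73 to 12.90 in TU fish of both sexes. The interaction was -3.70 ± 0.53 (adjusted p = 0.08) and -3.39 without TU female 3 (adjusted p = 0.0501). Without TU female 3 or with it, the genes that follow were not called. grik1a, a glutamate receptor subunit, had -2.54 (adjusted p = 0.225) and -2.21 without TU female 3. tmed1a, a cargo receptor of the secretory pathway, had 2.73 (adjusted p = 0.601) and 2.38 without TU female 3, with 6.03 in TU male 2 and 8.85 and 8.59 in the other TU males. rbp5, a retinol binding protein, had -1.80 (adjusted p = 0.61) and -1.36 without TU female 3. rbp2a, another, had 0.38 (adjusted p = 0.961) at its brighter probe and 3.70 at its other probe, and 0.58 and 1.55 without TU female 3. slc25a48, a mitochondrial carrier, had -0.98 (adjusted p = 0.954), and its sign turned to 0.20 (adjusted p = 0.971) without TU female 3.

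The counts leaned on single fish. Without TU male 2, 472 probes were called with the other 11 arrays (1.08% of those tested), 347 of them more male-biased in TU, and without both TU male 2 and TU female 3 there were 1322 (3.03%). At 301 of the 472, TU males 1 and 3, the fish with the highest intestine medians, were above all 10 other fish. With TU male 2 left out, these 2 fish alone made up the TU males, so calls favour probes where they stand together. The share of all probes at which TU males 1 and 3 were above every other fish was not counted. The insulin gene ins, outside the lists, was also high in TU males 1 and 3, at 15.78 and 15.40. It was at 7.60 in TU male 2 and at 14.98 in WIK male 3. The part of intestine or pancreas RNA in these calls was not tested. Counting a gene if any of its probes was among the 472, cholesterol synthesis had 4 of 23 listed genes (22 on the array), all more male-biased in TU. Clock genes had 2 of 36, and intestine had 1 of 10, more male-biased in TU. Every other list, of 8 to 53 genes, had at most 1. The share over all probes was 1.08%, which is a share per probe. A gene with several probes had several chances of a call, and the share per gene was not counted. Without WIK male 3 the count was 72. Leaving out any of TU males 1 and 3, TU females 1 and 2 or WIK males 1 and 2 gave 6, 10, 8, 10, 7 and 7.

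The male and female of a strain with the same number shared a slide and a scan, and 1 slide held the second pair of both strains. The 17 probes were called from these same pairs, and the interaction had the sign of the fit in each of them. Of the 79 probes, 62 had that sign between the third pairs, which include TU female 3. prkcbb was 3.34, rarres3l 4.19 and si:dkey-16m19.2 -4.37 within the slide. With slide as a fixed block, 2 probes were called with 12 arrays and 1 without TU female 3. Of the genes named by rule, 12 of 13 were then not called with 12 arrays, and 34 of 34 without TU female 3, while scan day as a block gave 12 and 20 probes.

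The counts and their split also depended on scaling. After scaling each array by its median in place of quantile normalization, 1 probe was called with 12 arrays, more male-biased in TU, and none of the 17, and without TU female 3 there were 13, with 10 in the direction of TU. With the scanner's processed signals, which moved the median interaction of all probes to -0.19 and to -0.38 without TU female 3, 4 of 5 and 6 of 12 probes were more male-biased in TU. The interaction kept its sign under every alternative that gave a value, at all genes that either fit called and the rule named. These genes were chosen by a small p from the same arrays, which makes a change of sign unlikely from the start.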

How the data were processed

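Liver RNA of 18 zebrafish was measured on one-colour arrays, and the 12 TU and WIK arrays were used for the comparison. The authors deposited the scanner output (Feature Extraction 11.0.1.1), with the linear intensity of each spot and its local background and no normalization. They also deposited a log2 table, background-corrected and normalized with limma and averaged by transcript, used here as an alternative. Median spot and background intensities were used, since mean signals are not in the files. Background was corrected with normexp (limma 3.58.1, R 4.3.3, offset 50), arrays were quantile-normalized over the 12 (or 11) arrays, marked outlier spots and 1417 control spots of 45220 were left out and spots of a probe were averaged to 43603 probes. On the 12 arrays 44.9% to 67.3% of spots were well above background and 0 were saturated. The number of arrays limits the precision.

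Group means per strain and sex were fitted with limma, the interaction was a contrast moderated by eBayes, and p-values were adjusted by Benjamini-Hochberg over all probes. The threshold for a call was an adjusted p of 0.05, with no fold cutoff. The fit was tested on simulated data. The comparison, the gene lists and the named genes were chosen with earlier results of these data known. Named genes were, per fit and direction, the called probes with the 12 smallest p that were well above background throughout a group, the study's sex-biased genes, and called or bright list genes. A list gene was represented by its brightest probe, if well above background on at least 3 arrays. A gene of the cholesterol synthesis list is not reported here. Names came from RefSeq gene accessions (26043 probes) or the study's tables (272). Alternatives were the scaling, filters, fold cutoffs, array weights, trend and robust moderation, replicate, slide and scan day blocks, the AB arrays, the deposited table and leaving out each array. Figures were drawn with matplotlib 3.10.9.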

Additional observations from a re-analysis of the deposited data

Results flagged for a closer look

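The sex difference differed between TU and WIK by the test of the interaction at 17 probes with all 12 arrays and at 79 without TU female 3. Listed here are the called genes with the 12 smallest p in each direction of a fit, or all if fewer. Each was well above background throughout a group. Other called genes, acadl, cyp46a1.1 and nfil3-5 among them, are not listed. With all arrays, the interactions of genes more male-biased in TU were 3.43 for prkcbb, 5.21 for rarres3l, 2.12 for hmgcra, 3.04 for zgc:153219 and 3.11 for sc5d. Those more male-biased in WIK were -4.32 for si:dkey-16m19.2, -1.47 for hoxc1a, -2.06 for gapdh, -2.79 for dnah2, -2.62 for eif4ebp3l, -1.64 for coch, -1.77 for rab6ba and -2.14 for tdg.2.

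Without TU female 3 the genes added in the direction of TU were znrf2a at 3.67, gja13.1 at 2.06, cyp2k22 at 2.44, glrx at 1.57, TC395038 at 1.88, tm9sf1 at 1.39, psmb8a at 1.54 and slc39a7 at 2.75. In the direction of WIK they were NM_001136256 at -3.46, lnx2a at -1.84, ENSDART00000109042 at -1.92, CSGALNACT1 at -1.15, igfbp1b at -3.98, znf1156 at -1.50, adh5 at -1.78, CT698230 at -2.33 and btf3 at -2.43.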

How the results depend on the processing

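The number of called probes moved with most choices, while no named gene that was called changed the sign of its interaction. A change of sign was unlikely from the start, as such genes were chosen by a small p from the same arrays. With 12 arrays (17 probes), the scanner's processed signals gave 5, median scaling 1, a fit with the AB arrays 32, array weights 26, slide as a random block 48 and the deposited log2 values 5 of 28404 transcripts. Without TU female 3 (79 probes), processed signals gave 12, median scaling 13, only probes well above background 122, a 4-fold cutoff 30, array weights 215, slide as a random block 247 and scan day as a fixed block 20. Apart from the replicate block and single arrays left out, the alternatives not listed stayed within 1.5 times of the counts in parentheses. Leaving out 1 array at a time gave 6 (without TU male 1) to 472 (without TU male 2) with 12 arrays, and 10 (without WIK male 2) to 1322 (without TU male 2) from the 11 arrays. The cause was not tested.

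Same-numbered males and females shared a slide. Their deviations from the group means correlated at 0.09, -0.03 and 0.37 in TU and at 0.20, 0.13 and 0.11 in WIK. Those of different numbers correlated at -0.42 to 0.23 in TU and at -0.18 to 0.03 in WIK, where every same-number value was higher. The main fits nevertheless took no pairs and no slide into account. The replicate block gave 2 probes with 12 arrays and 1 without TU female 3, with 3843 and 4288 probes at an unadjusted p under 0.05, and was the same fit as slide as a fixed block. Under it 12 of 13 and 34 of 34 genes named by rule were no longer called.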
